A study of Mus musculus with 24 samples.

Results

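The 10 genes described here are secreted ligands, antagonists and target genes of bone morphogenetic protein (BMP) and activin signalling, 10 of the 55421 mouse genes in the count table. They were chosen by symbol: the ligand genes Bmp2, Bmp4, Bmp7 and Inhba, the antagonist genes Grem1, Fst and Bambi, and the target genes Id1, Id2 and Id3. Each symbol matched 1 gene, and all 10 were among the 18046 genes with enough reads to be tested.

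BMPs and activins are secreted dimers of the TGF-β family. They bind paired serine-threonine kinase receptors, after which BMP receptors phosphorylate SMAD1, SMAD5 and SMAD9, and activin receptors phosphorylate SMAD2 and SMAD3. Gremlin 1 and noggin bind BMPs outside the cell, follistatin binds activin, and BAMBI is a pseudoreceptor without a kinase domain. In the lung, Bmp4 is known for its part in the branching of the embryonic airway, and the Id genes, which encode inhibitors of basic helix-loop-helix transcription factors, are classical BMP targets.

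The libraries are bulk RNA-Seq of mouse type 2 alveolar epithelial cells (AEC2s), the surfactant-producing progenitors of the alveolus, taken fresh (day 0) or after 1, 3 or 7 days of 2D culture. The cells came from Krt8+/+ mice (labelled WT) or Krt8-/- mice (labelled KO), which lack keratin 8 in every cell, so a difference between genotypes need not arise in the AEC2 itself. Each of the 8 groups had 3 libraries, 1 from each of 3 dated batches that were labelled as biological replicates, 24 libraries in all. The strain and age of the mice were not given, and the labels name no treatment beside culture.

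Krt8, the targeted gene, lay between 484 and 5087 CPM (read counts relative to the library total, scaled by TMM) in the 12 libraries of Krt8+/+ mice, and the 12 Krt8-/- libraries lay between 21.1 and 47.4 CPM, so no library went against its genotype label. Library totals ran from 10184439 to 19483386 reads. Fresh cells carried the AEC2 signature, with 8 marker genes that summed to between 227317 and 304364 CPM, and this sum was between 171 and 258 CPM on day 7, while the 4 epithelial markers Epcam, Cdh1, Nkx2-1 and Krt18 summed to between 1963 and 5421 CPM there. In both genotypes 1 of these 4, the keratin gene Krt18, was higher on day 7 than on day 0 and 2, Epcam and Nkx2-1, were lower. Of all genes tested, 28.6% were higher in each genotype, and 30.2% were lower in Krt8+/+ and 29.9% in Krt8-/- cells. Krt18 went from between 244 and 312 CPM to between 2259 and 4223 CPM in Krt8+/+ cells and so made up most of the sum, Nkx2-1 went from between 541 and 644 CPM to between 57.1 and 76 CPM, and Epcam from between 295 and 369.5 CPM to between 137 and 299 CPM. In batch 1, Y-linked genes and Xist placed the Krt8+/+ libraries as female. The Krt8-/- libraries of batch 1 held Y-linked genes at 173 to 191 CPM in sum and Xist at 5.91 to 11.9 CPM. In batch 3, where both genotypes were placed as male, Xist was at most 2.24 CPM. Whether the Krt8-/- libraries of batch 1 held cells of both sexes was not tested. The genotypes matched in batches 2 and 3. In bulk samples, fewer cells of a type and less RNA per cell cannot be told apart.

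RefSeq (GRCm38.p6) promoter entries matched 5 of the 10 genes (Grem1, Inhba, Bmp4, Id2 and Id3). Of these 5, the promoters of Grem1, Inhba and Bmp4 are shown because their log2 differences from day 0 on day 7 were the largest in both genotypes. Each sequence is the 250 bases before the annotated start, written 5′ to 3′ on the gene's strand, and capitals mark the motif matches.
Grem1 (chr2:113758649-113758898, minus strand): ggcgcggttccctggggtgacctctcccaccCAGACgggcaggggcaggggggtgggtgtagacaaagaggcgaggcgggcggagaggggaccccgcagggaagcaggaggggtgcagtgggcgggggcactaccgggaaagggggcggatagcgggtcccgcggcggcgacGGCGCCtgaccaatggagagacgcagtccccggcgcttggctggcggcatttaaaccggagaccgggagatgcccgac
Inhba (chr13:16011601-16011850, plus strand): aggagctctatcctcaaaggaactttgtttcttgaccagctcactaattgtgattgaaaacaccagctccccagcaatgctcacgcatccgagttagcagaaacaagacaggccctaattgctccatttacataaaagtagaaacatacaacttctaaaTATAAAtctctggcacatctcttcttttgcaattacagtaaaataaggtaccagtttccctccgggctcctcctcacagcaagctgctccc
Bmp4 (chr14:46390670-46390919, minus strand): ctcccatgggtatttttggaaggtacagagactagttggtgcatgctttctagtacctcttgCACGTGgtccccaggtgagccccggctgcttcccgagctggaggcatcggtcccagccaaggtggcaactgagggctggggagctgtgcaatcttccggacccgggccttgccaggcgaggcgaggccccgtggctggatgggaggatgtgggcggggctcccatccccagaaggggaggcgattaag
4 motifs were searched for on both strands. The first was the GC-rich SMAD element, spelled GGCGCC, which the Grem1 window held with its first base at -78, counting the base before the start as -1. The next was the SMAD box, spelled CAGAC or on the opposite strand GTCTG, which the same window held from -219. A TATA box, spelled TATAAA or on the opposite strand TTTATA, lay from -91 in the Inhba window. An E-box, spelled CACGTG, lay from -188 in the Bmp4 window. Among 32851 RefSeq promoter windows of the same length, the GC-rich element was found in 9.59%, the SMAD box in 42.2%, the TATA box in 12.4% and the E-box in 6.02%. These matches describe letters and do not show that a factor binds there.

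The first question was how these genes changed over time in culture. In Krt8+/+ cells on day 7 against day 0, 5 of the 10 genes rose (Inhba, Grem1, Fst, Id1 and Id3) and 4 fell (Bmp4, Bambi, Bmp2 and Id2) in edgeR's quasi-likelihood test at an adjusted p of 0.05 or less. Of all genes tested, 28.6% rose and 30.2% fell in that comparison. On day 1, 5 rose and 2 fell, beside 26.2% and 28.5% of all genes, and on day 3, 5 rose and 5 fell, beside 26.1% and 27.8%. The median log2 difference of the 10 genes was 0.84 on day 7, between a group that rose and a group that fell, and that of all genes was 0. These 3 comparisons share the day 0 libraries and are set side by side only.

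In Krt8-/- cells on day 1, 5 genes rose and 3 fell, beside 23.7% and 26.9% of all genes. On day 3, 5 rose and 3 fell, beside 25.4% and 26.6%, and on day 7, 5 rose and 4 fell, beside 28.6% and 29.9%. The 7 genes called on day 1 in Krt8+/+ cells were all called in the same direction in Krt8-/- cells, as were 8 of 10 on day 3 and 9 of 9 on day 7. The share of all genes called alike in both genotypes was not counted, so these counts do not set the 10 genes apart. When libraries were scaled by their totals without TMM, the median of all genes in Krt8+/+ cells shifted to 0.46, 0.60 and 0.45 at the 3 later days, and the share of calls that were higher went from 47.9%, 48.4% and 48.6% to 69.7%, 74.7% and 66.3%. All changes below are relative to the TMM scale.

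Between successive days fewer genes were called. From day 1 to day 3 in Krt8+/+ cells, 4 of the 10 rose (Inhba, Grem1, Fst and Id3) and 2 fell (Bmp4 and Id2), beside 14.4% and 11.9% of all genes. From day 3 to day 7, 2 rose (Grem1 and Fst) and 1 fell (Bmp4), beside 3.11% and 3.47%. The Krt8-/- counts were 5 and 3 for the first step, beside 13.4% and 10.2%, and 2 and 1 for the second, beside 4.40% and 6.15%. Several of these step calls were lost when a single batch was left out. In Krt8-/- cells from day 1 to day 3 this held for Bmp4 without batch 1, Bambi and Id2 without batch 1 or 3, Id3 without batch 1 or 2, and Id1 without any 1 of the 3, and from day 3 to day 7 for Grem1 without batch 1 or 3 and Fst without any 1 of the 3. In Krt8+/+ cells the Id3 step from day 1 to day 3 was lost without batch 2 (edgeR adjusted p 0.0551).

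**Figure D1:**
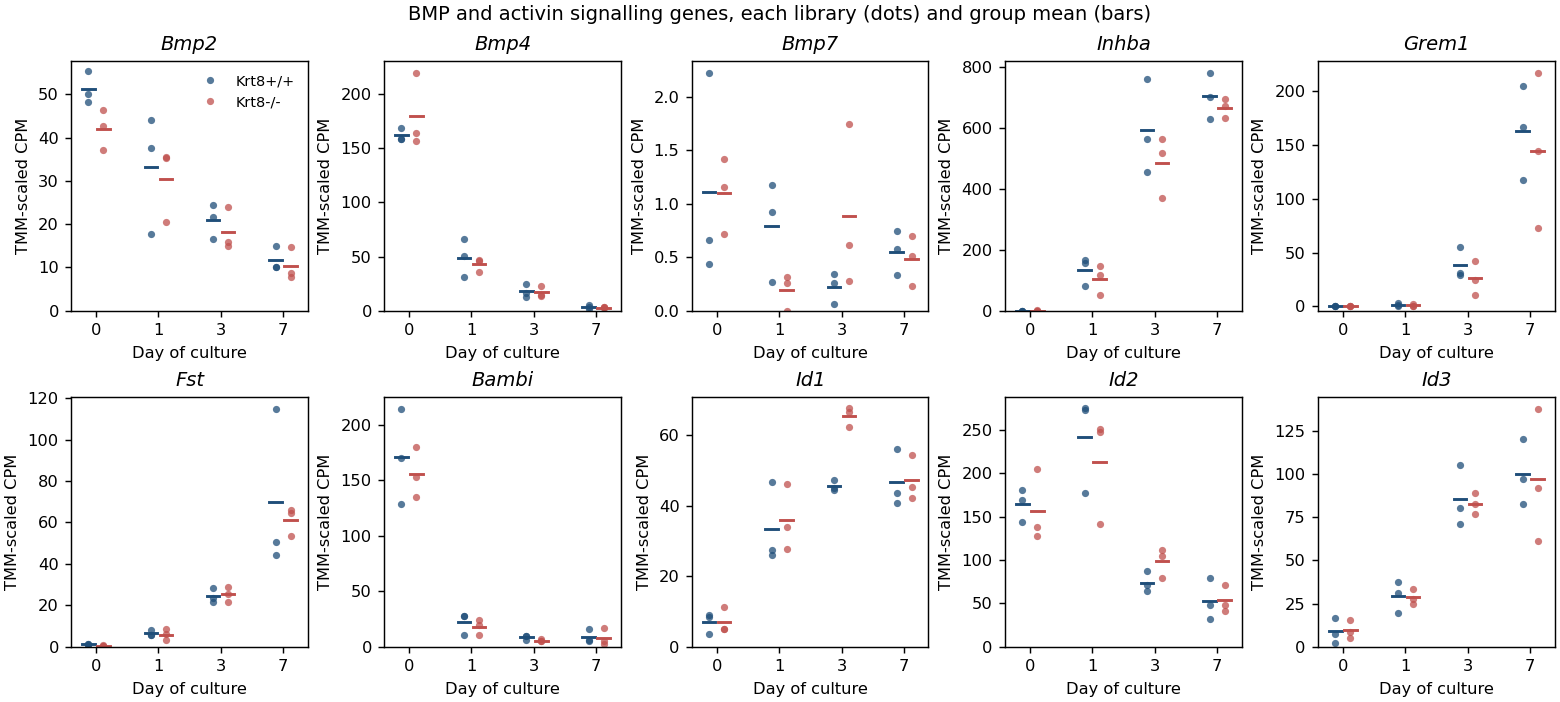
TMM-scaled CPM (vertical axis, linear, own scale in each panel) of the 10 genes by day of culture (horizontal axis), with a dot for each library and a bar for the mean of 3 libraries, Krt8+/+ in blue and Krt8-/- in red. Grem1 and Fst climb to day 7, Inhba and Id3 rise mostly by day 3, and Bmp4 and Bambi drop from day 1. The dots of the genotypes overlap for most genes on most days.

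Among the ligand genes, Inhba rose most. Inhba (chr13:16011851-16031621, plus strand) encodes the βA chain that forms activin A. In Krt8+/+ cells its 3 libraries held 4, 2 and 0 reads on day 0, and then 165, 158 and 81.4 CPM on day 1, 760.0, 565 and 454 CPM on day 3, and 781, 703 and 629 CPM on day 7. No day 0 library came near any cultured library, and days 3 and 7 overlapped.

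Pooled over the group, Inhba was 751-fold higher on day 1 (95% interval 345 to 2048), 3323-fold on day 3 (1526 to 9055) and 3992-fold on day 7 (1834 to 10878). These intervals are exact binomial ones and cover counting error only, since day 0 held 6 reads in all. The edgeR log2 differences were 9.52 ± 0.57, 11.65 ± 0.58 and 11.90 ± 0.58 (SE), with adjusted p of 8.9e-11, 8.72e-12 and 3.63e-12. The step from day 1 to day 3 was 2.14 ± 0.33 (adjusted p 9.26e-05), and that from day 3 to day 7 was 0.25 ± 0.32 and did not pass (adjusted p 0.749). Most of the rise fell within the first 3 days.

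The Krt8-/- libraries held Inhba at 0.216, 0.202 and 0.695 CPM on day 0, 116, 148 and 50.4 CPM on day 1, 517, 565 and 369 CPM on day 3, and 694, 632 and 671 CPM on day 7. The order of days was the same, and batch 3 was the lowest of the 3 on days 1 and 3 in both genotypes. The edgeR log2 differences from day 0 were 8.07 ± 0.51, 10.28 ± 0.53 and 10.74 ± 0.54, and all passed. Of the 14 day 0 reads behind these values, 9 were in batch 3, and without that batch the log2 differences were 9.24, 11.27 and 11.56.

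Bmp4 (chr14:46383520-46390669, minus strand), a BMP ligand of developing and adult lung, fell at each step. In Krt8+/+ cells it held 159, 169 and 159 CPM on day 0, 50.1, 31.1 and 65.7 CPM on day 1, 12.8, 16.7 and 24.2 CPM on day 3, and 3.26, 1.66 and 5.56 CPM on day 7. No library of a later day overlapped one of an earlier day. The edgeR log2 differences from day 0 were -1.72 ± 0.30 on day 1, -3.18 ± 0.32 on day 3 and -5.51 ± 0.37 on day 7 (adjusted p 7.73e-05, 7.29e-08 and 2.03e-10).

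Between successive days Bmp4 fell by 1.45 ± 0.31 on the log2 scale from day 1 to day 3 (edgeR adjusted p 0.00155) and by 2.34 ± 0.34 from day 3 to day 7 (0.000239). Without batch 1 the step from day 1 to day 3 did not pass (log2 difference -1.24, adjusted p 0.0586). Bmp4 in Krt8-/- cells went from 219.6, 157 and 164 CPM on day 0 to 46.4, 36.1 and 45.7 CPM on day 1, 13.1, 14.8 and 22.7 CPM on day 3 and 2.97, 3.03 and 2.29 CPM on day 7. Again no 2 days overlapped, and the day 7 log2 difference was -6.02 ± 0.38. Exons of the opposite-strand gene Gm15217 cover 89 bases, 3.96%, of the Bmp4 exons, and whether counting used strand was not given.

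Bmp2 (chr2:133552159-133562885, plus strand), a second BMP ligand, fell more slowly. Krt8+/+ libraries held 48.2, 50.1 and 55.3 CPM on day 0, 37.6, 17.7 and 44.1 CPM on day 1, 16.6, 21.7 and 24.5 CPM on day 3, and 10.1, 10.1 and 15 CPM on day 7. Every cultured library was below every fresh one. The log2 difference of -0.62 ± 0.30 on day 1 did not pass (edgeR adjusted p 0.0817), whereas -1.29 ± 0.30 on day 3 (0.00115) and -2.12 ± 0.31 on day 7 (6.9e-06) did.

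Bmp2 in Krt8-/- cells went from 46.4, 42.7 and 37.1 CPM on day 0 to 14.6, 7.86 and 8.60 CPM on day 7, a log2 difference of -2.02 ± 0.31 (edgeR adjusted p 1.23e-05). The day 3 value in these cells, -1.21 ± 0.30, passed with all batches (adjusted p 0.00218) and not without batch 1 (0.0523).

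Bmp7 (chr2:172868012-172940321, minus strand), a BMP ligand known from kidney and bone, was near the limit of detection. Its reads summed over 3 libraries were between 8 and 45 in every group, and group means lay between 0.190 and 1.11 CPM. It was called lower in Krt8+/+ cells on day 3 (log2 difference -2.30 ± 0.85, edgeR adjusted p 0.0271) and in Krt8-/- cells on day 1 (-2.42 ± 0.88, 0.0281). Without batch 1 or without batch 2 the first was lost (log2 difference -1.37 without batch 1, adjusted p 0.319 and 0.123), and without any 1 of the 3 batches the second was lost (0.101, 0.134 and 0.0692). Scaling by library totals also ended both calls (0.0882 and 0.0762). At this depth no course over days was detectable for Bmp7.

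Of the antagonist genes, Grem1 went from no read to the fourth highest per-length level of the 10. Grem1 (chr2:113746164-113758646, minus strand) encodes gremlin 1, which binds BMP2, BMP4 and BMP7. All 6 day 0 libraries held 0 reads, which with a floor of 3 reads over each group allows up to 0.0882 CPM in Krt8+/+ and 0.0816 CPM in Krt8-/- cells. Krt8+/+ libraries held 0.514, 0.919 and 2.98 CPM on day 1, 55.2, 30.7 and 29.0 CPM on day 3, and 167, 118 and 204 CPM on day 7. No 2 days overlapped.

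Against that floor Grem1 was at least 17.4-fold higher on day 1, at least 429-fold on day 3 and at least 1886-fold on day 7, with edgeR adjusted p of 0.0104, 2.63e-06 and 1.69e-07. The day 1 call rested on 62 reads and was lost without batch 1 (adjusted p 0.0518) or batch 3 (0.058). Without batch 3, which held 44 of these reads, the day 1 bound was 5.85-fold, a value added after the data were seen. Leaving out any 1 batch, which also sets the floor over 2 libraries, gave bounds of 182-fold to 357-fold on day 3 and 1011-fold to 1536-fold on day 7. The step from day 1 to day 3 was a log2 difference of 4.66 ± 0.72 (adjusted p 0.000201), 3.89 without batch 1 and 5.91 without batch 3. The step from day 3 to day 7, 2.09 ± 0.58, passed with 3 batches (0.0399), and without batch 1, 2 or 3 it did not (0.153, 0.0941 and 0.12), nor with library totals (0.0573) or by DESeq2 (0.1).

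Grem1 in Krt8-/- cells held 0.179, 2.01 and 0.156 CPM on day 1, 24.7, 42.3 and 10.8 CPM on day 3, and 145, 72.6 and 217 CPM on day 7. Batch 2 was the highest of the 3 on days 1 and 3 and the lowest on day 7. Against the floor Grem1 was at least 10.9-fold, 328-fold and 1827-fold higher on days 1, 3 and 7. On day 1, 31 of the 35 reads were in batch 2 and the other libraries held 2 reads each, so without batch 2 the bound was 1.49-fold and the edgeR log2 difference went from 6.58 to 4.35. Without any 1 batch the bounds were 159.7-fold to 270.1-fold on day 3 and 905-fold to 1601-fold on day 7. The day 1 call (edgeR adjusted p 0.0347) was lost with the batch as a block (0.0553), without batch 1 (0.0946) and without batch 2 (0.314), while the day 3 and day 7 calls passed in each alternative. The log2 difference from day 1 to day 3 was 4.91 (6.65 without batch 2), and that from day 3 to day 7 was 2.48 (3.34 without batch 2 and 1.70 without batch 3).

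Fst (chr13:114452290-114458951, minus strand), which encodes the activin-binding protein follistatin, rose at each step. Krt8+/+ libraries held 1.52, 0.757 and 1.11 CPM on day 0, 7.92, 5.76 and 5.83 CPM on day 1, 28.2, 21.4 and 23.4 CPM on day 3, and 115, 50.5 and 44.2 CPM on day 7. The days did not overlap, and the batch 1 library on day 7 stood above the other two. The edgeR log2 differences from day 0 were 2.47 ± 0.42, 4.36 ± 0.42 and 5.89 ± 0.44 (adjusted p 6.16e-05, 4.07e-08 and 7.59e-10).

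The step of Fst from day 3 to day 7 was a log2 difference of 1.52 ± 0.33 (edgeR adjusted p 0.0067). It did not pass without batch 1 (1.08, adjusted p 0.123) or without batch 2 (1.61, 0.108). Fst in Krt8-/- cells went from 0.503, 0.708 and 0.154 CPM on day 0 through 8.33, 6.15 and 3.03 CPM on day 1 and 25.7, 28.9 and 21.5 CPM on day 3 to 66.2, 53.4 and 64.6 CPM on day 7, with log2 differences of 3.70 ± 0.49, 5.82 ± 0.48 and 7.10 ± 0.48. Exons of the antisense gene Gm47040 cover 115 bases, 2.51%, of the Fst exons.

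Bambi, which encodes the pseudoreceptor and is itself a known BMP and TGF-β target, fell early. Krt8+/+ libraries held 129, 170.0 and 214 CPM on day 0, 27.4, 10.7 and 27.5 CPM on day 1, 9.96, 6.28 and 9.30 CPM on day 3, and 4.90, 6.30 and 15.7 CPM on day 7. Fresh libraries stood far above all cultured ones, and days 3 and 7 overlapped. The edgeR log2 differences from day 0 were -2.96 ± 0.52, -4.33 ± 0.56 and -4.25 ± 0.56 (adjusted p 7.77e-05, 1.64e-06 and 1.56e-06).

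From day 1 to day 3 Bambi in Krt8+/+ cells differed by -1.36 ± 0.51 (edgeR adjusted p 0.054). This step passed with the batch as a block (-1.31, 0.0201) and with DESeq2 as test (0.0215) or as size factors (0.0457). It also passed with no filter (0.0216) and with only the libraries compared (0.0383). With library totals, or when a batch was left out, it did not pass. Krt8-/- libraries held Bambi at 179.7, 135 and 153 CPM on day 0, 19.5, 10.5 and 24.4 CPM on day 1, 6.57, 5.24 and 4.71 CPM on day 3, and 5.26, 2.33 and 16.4 CPM on day 7. The batch 3 library was the highest on day 7 in both genotypes, and without it the day 7 log2 difference in Krt8-/- cells went from -4.27 to -5.34. A pseudogene, Bambi-ps1, is annotated, and how reads shared with it were counted was not given.

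**Figure D2:**
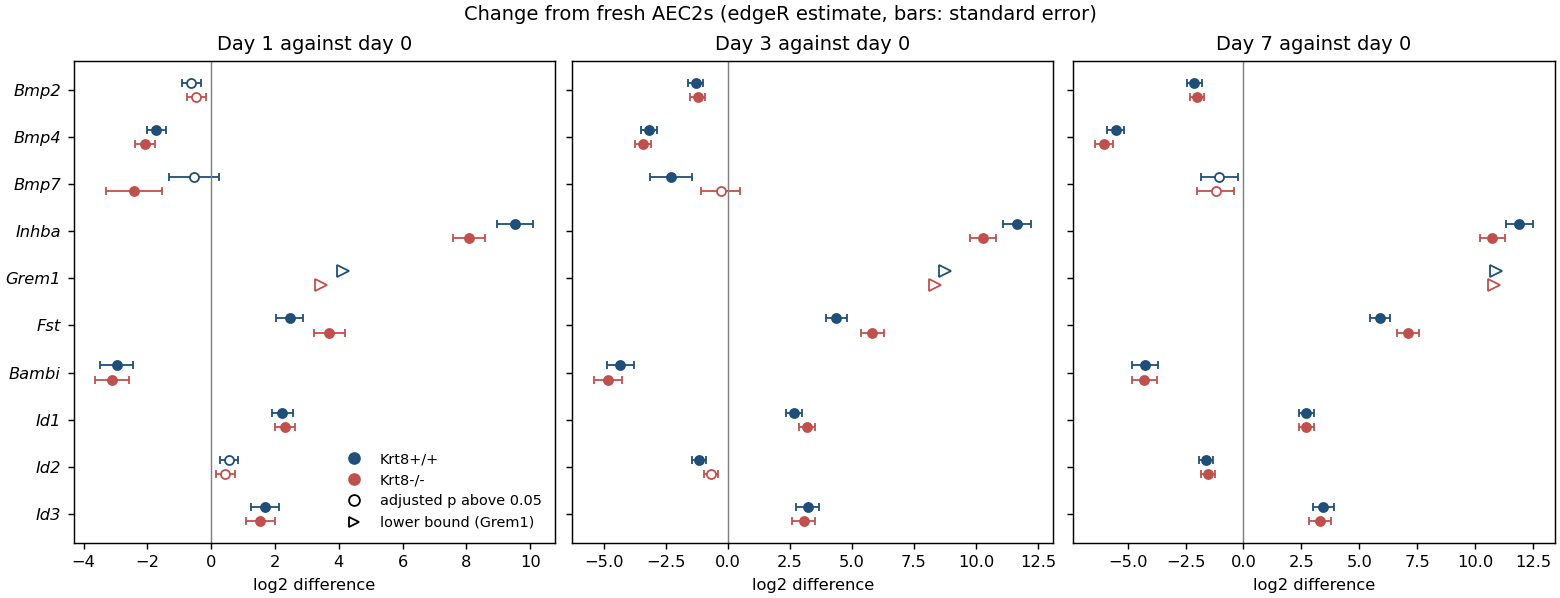
Log2 difference from day 0 (horizontal axis, own scale in each panel) of the 10 genes on days 1, 3 and 7, Krt8+/+ in blue and Krt8-/- in red, with points at the edgeR estimate and bars for its SE. Filled points passed an adjusted p of 0.05 and open points did not, and open triangles give the lower bound for Grem1, which had no read on day 0. Inhba lies farthest right on day 1, and Bmp4 lies farthest left on day 7.

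The 3 Id genes did not move together. Id1 (chr2:152736251-152737410, plus strand) rose within 1 day. Krt8+/+ libraries held 8.96, 8.55 and 3.65 CPM on day 0, 27.6, 46.8 and 26.2 CPM on day 1, 45.0, 47.4 and 44.4 CPM on day 3, and 56.2, 43.7 and 40.7 CPM on day 7. All 9 cultured libraries were above all fresh ones, and the cultured days overlapped. Differences from day 0 by edgeR, on the log2 scale, were 2.23 ± 0.32, 2.68 ± 0.32 and 2.72 ± 0.32 (adjusted p 7.95e-06, 7.2e-07 and 4.62e-07).

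Id3 (chr4:136143497-136145755, plus strand) rose more and over a longer time. Krt8+/+ libraries held 16.8, 7.25 and 2.43 CPM on day 0, 31.0, 37.2 and 19.7 CPM on day 1, 105, 71.2 and 80.3 CPM on day 3, and 96.8, 82.8 and 120.3 CPM on day 7. Fresh libraries spread widely among themselves and still lay below all cultured ones. By edgeR's test, the gene gave log2 differences from day 0 of 1.68 ± 0.45, 3.23 ± 0.47 and 3.45 ± 0.47 (adjusted p 0.00358, 6.94e-06 and 2.54e-06), of which the first was lost without batch 2 (0.08), as was the day 1 call in Krt8-/- cells (0.088). Batch 1 had the highest fresh Id3 level, and without it the Krt8+/+ values were 2.55, 3.96 and 4.39.

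Id2 (chr12:25093799-25097140, minus strand) took the other course. Krt8+/+ libraries held 144, 169 and 181 CPM on day 0, 275, 177 and 273 CPM on day 1, 86.8, 70.7 and 63.7 CPM on day 3, and 79.6, 48.2 and 31.6 CPM on day 7. Day 1 overlapped day 0, and every library of days 3 and 7 lay below every library of days 0 and 1. The day 1 log2 difference of 0.56 ± 0.29 did not pass (edgeR adjusted p 0.111) on the TMM scale and passed when scaled by library totals (1.02, 0.00337) or fitted with only the libraries compared (0.65, 0.0355).

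On day 3 the log2 difference of Id2 in Krt8+/+ cells was -1.16 ± 0.29 (edgeR adjusted p 0.00237) and on day 7 -1.63 ± 0.30 (9.08e-05). The day 3 call was lost without batch 2 (-1.03, 0.0524) and with library totals (-0.54, 0.0893). Id2 in Krt8-/- cells on day 3 differed by -0.67 ± 0.29 (0.0614). This passed with the batch as a block (-0.68, 0.0458), without batch 1 (0.0458) and with only the libraries compared (0.0194). On day 7 Id2 in these cells differed by -1.54 ± 0.30 (0.000156). From day 3 to day 7 it differed by -0.88 ± 0.29 (0.0617). That step passed with the block (-0.90, 0.0383), DESeq2 as test (0.0297), no filter (0.0256), library totals (0.0182) and only the libraries compared (0.0335). With DESeq2 size factors, or when a batch was left out, it did not pass.

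Id1 in Krt8-/- cells held 11.3, 5.06 and 5.09 CPM on day 0, 27.7, 46.3 and 33.9 CPM on day 1, 67.7, 62.4 and 66.6 CPM on day 3, and 54.4, 42.3 and 45.4 CPM on day 7. Its highest values were on day 3, where no library overlapped another day. Id2 in these cells held 127, 138 and 204 CPM on day 0, 247, 142 and 251 CPM on day 1, 105, 111 and 79.5 CPM on day 3, and 71.0, 48.3 and 41.6 CPM on day 7. Id3 held 15.7, 8.50 and 5.33 CPM on day 0, 24.9, 33.4 and 27.8 CPM on day 1, 89.1, 82.4 and 76.7 CPM on day 3, and 91.9, 61.1 and 138 CPM on day 7. Without batch 1 the day 1 log2 differences in Krt8-/- cells went from 2.32 to 2.98 for Id1 and from 1.54 to 2.16 for Id3, and without batch 3 the day 7 difference of Id3 went from 3.29 to 2.65.

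On a per-length scale, as CPM per kilobase of exon, Id2 made up 85.9% ± 8.4 (SD, n = 3) of the summed level of the 3 Id genes in fresh Krt8+/+ cells, 68.2% ± 12.1 on day 1, 25.7% ± 1.56 on day 3 and 18.2% ± 6.55 on day 7. Id3 went from 6.38% ± 5.46 on day 0 to 47.6% ± 9.52 on day 7, and Id1 from 7.78% ± 3.31 to 34.2% ± 3.24. The shares in Krt8-/- cells were 84.0% ± 9.19 for Id2 on day 0 and 19.2% ± 5.57 on day 7. By this measure the leading Id gene changed from Id2 to Id1 or Id3 between days 1 and 3. By the longest transcript in place of all exons, Id2 was still above Id1 in some day 3 libraries. These were batch 1 of Krt8+/+ cells (44.1 against 38.8 CPM per kb) and batch 2 of Krt8-/- cells (56.5 against 53.8), and Id2 was below Id1 in the other libraries of that day.

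A batch stood apart on day 1. In batch 2 the 8 AEC2 markers summed to 15035 CPM in Krt8+/+ and 14157 CPM in Krt8-/- cells, against 62830.2 to 87636 CPM in the other 4 day 1 libraries. In the same batch and on the same day, Bmp2, Bmp4, Bambi and Id2 were at their lowest and Id1 and Id3 at their highest of the 3 libraries in both genotypes. What these have to do with each other was not tested, and without batch 2 the day 1 log2 differences of the called genes in Krt8+/+ cells kept their direction.

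The order of levels between genes was compared per kilobase of exon. In fresh Krt8+/+ cells Bmp4 (72.1 ± 2.53 CPM per kb, SD, n = 3) and Id2 (67.4 ± 7.81) led and overlapped, followed by Bambi (33.7 ± 8.43), Bmp2 (14.4 ± 1.04), Id1 (6.08 ± 2.55) and Id3 (4.94 ± 4.09), and Bmp7, Fst, Inhba and Grem1 were each below Id3 with no overlap. Bambi and Bmp2 each stood clear of both neighbours, and Id1 and Id3 overlapped. By the longest transcript in place of all exons, Id2 (83.5) came before Bmp4 (78.5).

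On day 7 Inhba led (110.3 ± 11.9 CPM per kb) and stood clear of Id3 (55.8 ± 10.6), which overlapped Id1 (40.4 ± 7.1), as Id1 did Grem1 (39.3 ± 10.5). Id2 (21.8 ± 10) and Fst (15.2 ± 8.51) came next, and Bmp2 (3.31 ± 0.798), Bambi (1.77 ± 1.16), Bmp4 (1.55 ± 0.873) and Bmp7 (0.138 ± 0.0522) closed the order. Bmp4 had gone from first to ninth, and Inhba from ninth to first. In Krt8-/- cells on day 7 the order of the 10 genes was the same, with Inhba at 104 ± 4.93 CPM per kb.

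Within a library, the ratio of an antagonist to a ligand does not depend on how libraries are scaled. The per-length ratio of Grem1 to Bmp4 was 0 in all fresh libraries. In Krt8+/+ cells it averaged 0.0154 ± 0.00954 after 1 day (SD, n = 3), 1.33 ± 0.893 after 3 days and 28.7 ± 9.34 after 7 days. In Krt8-/- cells it was 0.0114 ± 0.0163, 0.943 ± 0.649 and 30.2 ± 19.4 on days 1, 3 and 7. In each of the 6 batch and genotype series the ratio was at most 0.0302 on day 1 and at least 13 on day 7.

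The per-length ratio of Fst to Inhba moved the other way at first. It was 8.35 and 4.87 in the 2 fresh Krt8+/+ libraries with any Inhba read and 3.25, 4.87 and 0.309 in the fresh Krt8-/- libraries, values that rest on 2 to 9 Inhba reads each. On day 1 it was 0.0724 ± 0.025 in Krt8+/+ and 0.0806 ± 0.0212 in Krt8-/- cells, on day 3 0.0587 ± 0.0114 and 0.0739 ± 0.00643, and on day 7 0.134 ± 0.0613 and 0.128 ± 0.00896. In culture Inhba thus stayed above Fst in every library. With Fstl3, which encodes another activin inhibitor, added to Fst, the ratio to Inhba after 1, 3 and 7 days was 0.699 ± 0.255, 0.445 ± 0.153 and 0.955 ± 0.115 in Krt8+/+ cells, and 1.15 ± 0.663, 0.626 ± 0.158 and 1.08 ± 0.322 in Krt8-/- cells. On day 7 this summed ratio, rounded, was 0.824, 1 and 1.04 in the Krt8+/+ libraries and 0.988, 1.44 and 0.816 in the Krt8-/- libraries. It was above 1 in 1 of 3 Krt8-/- libraries on day 1. These ratios are descriptions and were not tested.

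**Figure D3:**
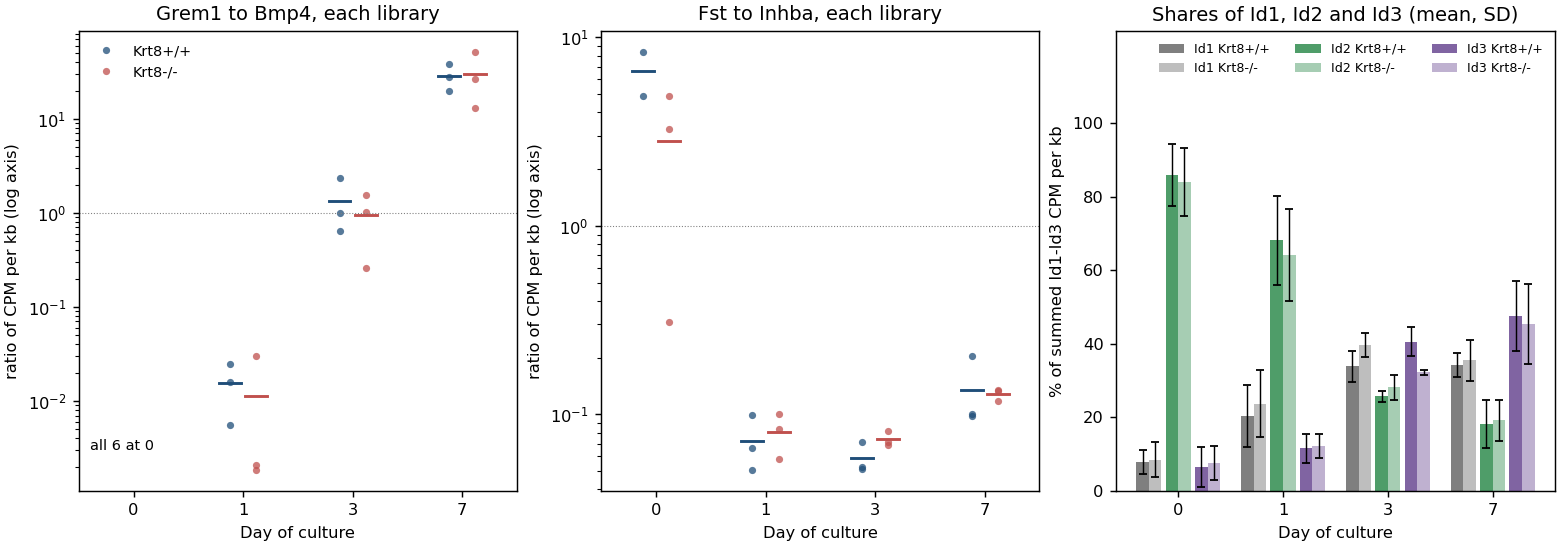
Per-length ratio of Grem1 to Bmp4 (left) and of Fst to Inhba (middle) in each library on a log axis by day of culture, with bars for the mean, and the shares of Id1, Id2 and Id3 in their summed CPM per kb (right, mean with SD of 3 libraries, paler bars for Krt8-/-). The Grem1 to Bmp4 ratio passes 1 around day 3, the Fst to Inhba ratio is below 1 in all cultured libraries, and the Id2 share drops from 85.9% to 18.2% in Krt8+/+ cells.

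The other genes of the pathway were read from lists of 68 genes by role, of which 52 were tested. In Krt8+/+ cells on day 7 against day 0, 19 rose and 14 fell in edgeR's test, 36.5% and 26.9% of those tested, beside 28.6% and 30.2% of all genes. On day 1 the counts were 13 and 14, 25% and 26.9%, beside 26.2% and 28.5% of all genes. On day 3 they were 15 and 16, 28.8% and 30.8%, beside 26.1% and 27.8%. In Krt8-/- cells on day 7, 22 rose and 14 fell, 42.3% and 26.9%, beside 28.6% and 29.9%. The shares on days 1 and 3 were near those of all genes.

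Of the 10 other antagonists tested, 6 rose (60%) and 3 fell (30%) on day 7 in both genotypes. Of all genes, 28.6% rose and 30.2% fell in Krt8+/+ cells, and 28.6% and 29.9% in Krt8-/- cells. The median log2 difference of these antagonists was 2.12 in Krt8+/+ and 2.44 in Krt8-/- cells. Nog, which encodes the BMP antagonist noggin, went from 0.0941 ± 0.0265 to 23.4 ± 8.63 CPM in Krt8+/+ cells (SD, n = 3), from 3 reads in all on day 0. Fstl3, a follistatin-like inhibitor of activin, went from 7.38 ± 1.53 to 218 ± 29.8 CPM, a log2 difference of 4.87 ± 0.22 (edgeR adjusted p 1.59e-12). Its Krt8-/- levels went from 9.20 ± 1.76 to 240.3 ± 72.7 CPM (4.71 ± 0.22). Per length, Fstl3 stood at 89.2 CPM per kb on day 7 in Krt8+/+ cells, above Grem1 and Fst.

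Of the 10 SMADs and their ligases tested, 3 rose (30%) and 2 fell (20%) on day 7 in both genotypes. Beside this, 28.6% of all genes rose and 30.2% fell in Krt8+/+ cells, and 28.6% and 29.9% in Krt8-/- cells. Smad7, the inhibitory SMAD induced by this family of ligands, went from 15.4 ± 4.19 to 103 ± 5.57 CPM in Krt8+/+ cells, a log2 difference of 2.74 ± 0.17 (edgeR adjusted p 9.57e-11), and from 18.3 ± 3.12 to 115 ± 1.83 CPM in Krt8-/- cells. Smad5, which carries the BMP signal, fell by 0.98 ± 0.19 on the log2 scale in Krt8+/+ cells (0.000155).

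Of the 13 other ligands tested, 2 rose (15.4%) and 4 fell (30.8%) on day 7 in Krt8+/+ cells, beside 28.6% and 30.2% of all genes. In Krt8-/- cells 5 rose (38.5%) and 4 fell (30.8%), beside 28.6% and 29.9%. Bmp3, an atypical BMP that opposes other BMPs, fell from 136 ± 14.2 to 1.02 ± 0.313 CPM in Krt8+/+ cells, a log2 difference of -7.06 ± 0.41 (edgeR adjusted p 3.84e-11). Gdf6 had 0 reads in the fresh Krt8+/+ libraries and 2.09 ± 1.42 CPM on day 7.

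Of the 12 receptors and coreceptors tested, 5 rose (41.7%) and 4 fell (33.3%) on day 7 in both genotypes. Of all genes, 28.6% rose and 30.2% fell in Krt8+/+ cells, and 28.6% and 29.9% in Krt8-/- cells. Eng, which encodes the coreceptor endoglin, had a log2 difference of 3.83 ± 0.69 (edgeR adjusted p 6.99e-05) and Rgma, a BMP coreceptor, one of -2.95 ± 0.37 (9e-07) in Krt8+/+ cells. Of the 7 other target genes tested, 3 rose (42.9%) and 1 fell (14.3%) on day 7 in both genotypes, beside the same shares of all genes. Msx2, a homeobox gene, had 0 reads in all 6 fresh libraries and 3.22 ± 1.41 CPM in Krt8+/+ and 3.41 ± 1.62 CPM in Krt8-/- cells on day 7. Runx2, a transcription factor of bone, went from 0.305 ± 0.358 to 8.56 ± 4.65 CPM in Krt8+/+ cells.

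Marker lists of other cell types did not all change in the same way. The 6 smooth muscle and pericyte markers summed to between 10.1 and 45.1 CPM in fresh Krt8+/+ libraries and between 1377 and 2784 CPM on day 7, with Acta2 between 986 and 2122 CPM. Of the 6 genes, 5 rose on day 7, beside 28.6% of all genes. The 10 fibroblast markers summed to between 314 and 1091 CPM on day 0, 153 and 329 CPM on day 1, 1012 and 1802 CPM on day 3 and 904 and 1916 CPM on day 7 in Krt8+/+ cells. Of these 10 genes, 3 rose and 5 fell on day 7, beside 28.6% and 30.2% of all genes. Col1a1 went from between 22.5 and 100.3 CPM to between 374 and 759 CPM, and Col1a2 from between 28.1 and 119.6 CPM to between 404 and 860.2 CPM. Dcn went from between 121 and 299 CPM to between 9.67 and 26.6 CPM. The fibroblast sum on day 7 thus followed these collagen genes and did not reflect the list as a whole.

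The order of libraries by marker sum and by Grem1 was the same in some groups and not in others. On day 7, in batches 1, 2 and 3, the fibroblast sum was 904, 1005 and 1916 CPM in Krt8+/+ cells, where Grem1 was 167, 118 and 204 CPM, and 964, 838 and 3185 CPM in Krt8-/- cells, where Grem1 was 145, 72.6 and 217 CPM. The library with the highest fibroblast sum had the highest Grem1 in each genotype on day 7, whereas the smooth muscle and pericyte sum was highest in batch 2 (2784 CPM in Krt8+/+ and 3133 CPM in Krt8-/- cells), where Grem1 was lowest. On day 3 the fibroblast sum was 1802, 1336 and 1012 CPM in Krt8+/+ and 988, 1315 and 638 CPM in Krt8-/- cells, and Grem1 followed the same order of batches in both. The smooth muscle and pericyte sum also had that order on day 3. It was 633, 499 and 410.3 CPM in Krt8+/+ and 363, 575 and 220.1 CPM in Krt8-/- cells. On day 1 the fibroblast sum was 329, 183 and 153 CPM in Krt8+/+ cells, where Grem1 held 7, 11 and 44 reads. Grem1 was thus highest in batch 3, where the sum was lowest, with too few reads to order batches 1 and 2. In Krt8-/- cells the day 1 sum was 225, 226 and 115 CPM, nearly equal in batches 1 and 2. Grem1 held 2, 31 and 2 reads there, too few to order batches 1 and 3.

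Mesothelial markers, 6 genes, summed to between 79.4 and 238 CPM in fresh Krt8+/+ libraries and between 1006 and 1886 CPM on day 7. Only 1 gene was higher and 4 were lower, beside 28.6% and 30.2% of all genes. The sum thus did not reflect the list as a whole. Upk3b went from between 33.5 and 92.7 CPM to between 0.596 and 1.82 CPM. Macrophage markers, with 7 of 8 genes tested, had none called, and their sum on day 7 ran from 9.2 to 165 CPM. AEC1 markers, of 8 genes, had 6 higher and 1 lower in Krt8+/+ cells, beside 28.6% and 30.2% of all genes. In Krt8-/- cells 5 of these markers were higher and 2 lower, beside 28.6% and 29.9%. Their sum went from between 2519.7 and 3124 CPM on day 0 to between 1684 and 3059 CPM on day 7 in Krt8+/+ cells and from between 3317 and 3652 CPM to between 1782 and 2369 CPM in Krt8-/- cells, so it was not higher on day 7. Endothelial markers summed to at most 29.6 CPM in every Krt8+/+ library, and Pecam1 was at 0 in all 6 Krt8+/+ libraries of days 3 and 7. The part of these markers in the rise of Grem1, Inhba, Fst and Nog was not tested.

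**Figure D4:**
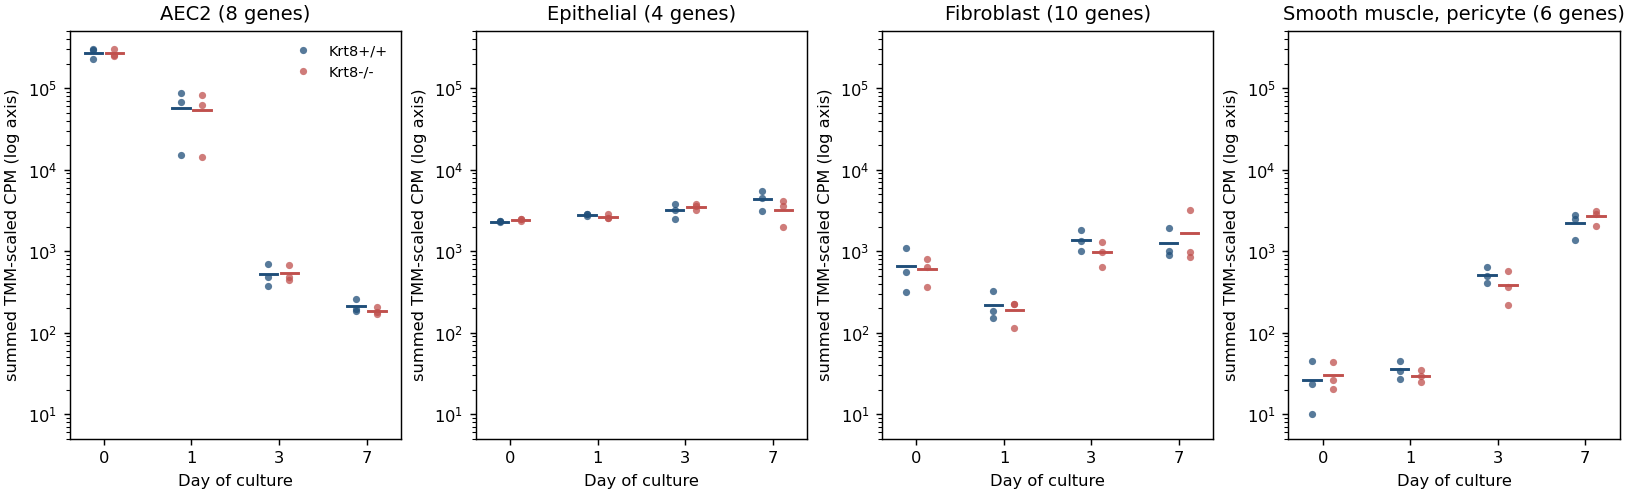
Summed TMM-scaled CPM (vertical axis, log scale) of the AEC2, epithelial, fibroblast, and smooth muscle and pericyte marker lists by day of culture, with a dot for each library and a bar for the mean of 3 libraries, Krt8+/+ in blue and Krt8-/- in red. The AEC2 sum drops at each later day, the epithelial sum lies between 1963 and 5421 CPM, and the smooth muscle and pericyte sum climbs to between 1377 and 3133 CPM on day 7.

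The genes nearest in pattern were found as those with the smallest root mean square difference of centred group means (log2 CPM, 8 groups) among the 18046 tested. For Grem1 they were Prl2c2 (0.355) and Lox (0.576), for Fst Pdgfc (0.263) and Amot (0.266), and for Inhba Itga2 (0.769) and Adam12 (0.858). The Inhba distances were the largest of the 10 genes, whose own range was 11.3 on the log2 scale. For Bmp4 they were Slc6a20a (0.164) and Dnah3 (0.22), for Bambi Bcl11b (0.188) and Cyp2d22 (0.203), for Bmp2 Vrk3 (0.123) and Crebrf (0.129), and for Bmp7 Igsf5 (0.229) and Fbxl21 (0.303). For Id1 they were Cnnm4 (0.116) and Ugdh (0.14), for Id2 Tmem91 (0.1) and Egr1 (0.124), and for Id3 Smtn (0.105) and Prelid2 (0.134).

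The second question was whether loss of Krt8 changed these genes. None of the 10 passed edgeR's test between genotypes on day 0, 1, 3 or 7, over days 1 to 7 together, or in the interaction of genotype and day, and every adjusted p was 1. Of all genes, 0.0277% passed on day 0, 0.0166% on each of days 1, 3 and 7, 0.0277% over days 1 to 7 and 0.00554% in the interaction. At an unadjusted p under 0.05, 1 of the 10 genes stood out on day 0 (Fst), beside 2.65% of all genes, 1 on day 1 and 1 on day 3 (both Bmp7), beside 3.54% and 2.50%, and 1 in the interaction (Bmp7), beside 1.49%. None did on day 7 or over days 1 to 7, beside 1.41% and 2.88%. With the batch as a block, Fst still had an unadjusted p under 0.05 on day 0 (edgeR p 0.0119) and Bmp7 no longer did on day 1 (0.0547), on day 3 (0.0529) or in the interaction (0.0664). Neither the block nor DESeq2 put any of the 10 genes past an adjusted p of 0.05.

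The libraries of the genotypes did not overlap in 3 of 40 pairs of gene and day. These were 2 of the 10 genes on day 0 (Fst and Bmp2) and 1 on day 3 (Id1), and none on days 1 and 7, beside 6.88%, 11.0%, 5.79% and 5.54% of all genes on days 0, 3, 1 and 7. Fresh Krt8-/- libraries held 0.154 to 0.708 CPM of Fst and fresh Krt8+/+ libraries 0.757 to 1.52 CPM, 16 against 41 reads in all. The log2 difference of Fst was -1.40 ± 0.58 and did not pass the correction. Bmp7 differed in opposite directions on day 1 (-1.94 ± 0.89) and day 3 (1.94 ± 0.85), with overlapping libraries both times. Id1 on day 3 lay at 62.4 to 67.7 CPM in Krt8-/- against 44.4 to 47.4 CPM in Krt8+/+ libraries. Its log2 difference was 0.52 ± 0.29, with an edgeR adjusted p of 1. Bmp2 on day 0 lay at 37.1 to 46.4 CPM against 48.2 to 55.3 CPM (-0.28 ± 0.30, adjusted p 1).

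Over days 1 to 7, with the days weighted by the time they span, the 95% interval of the log2 difference (Krt8-/- minus Krt8+/+) held 0 for all 10 genes. It was narrowest for Id2 (-0.203 to 0.569) and Id1 (-0.104 to 0.672), and it ran from -0.653 to 0.184 for Inhba, from -0.494 to 0.378 for Fst, from -0.623 to 0.23 for Bmp4, from -0.579 to 0.22 for Bmp2, from -0.594 to 0.507 for Id3 and from -1.11 to 0.28 for Bambi. Grem1 (-1.26 to 0.313) and Bmp7 (-0.539 to 1.69) had the widest intervals, and those of Grem1, Bambi and Bmp7 included a difference of 1 on the log2 scale in one direction. Without batch 1, in which sex-linked genes differed between the genotypes, 0 of the 10 genes passed in each of these comparisons. Fresh Krt8-/- libraries also held more of 6 airway markers (summed 12189 to 17335 CPM against 4486 to 10077 CPM), and the part of this in the day 0 values was not tested.

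**Figure D5:**
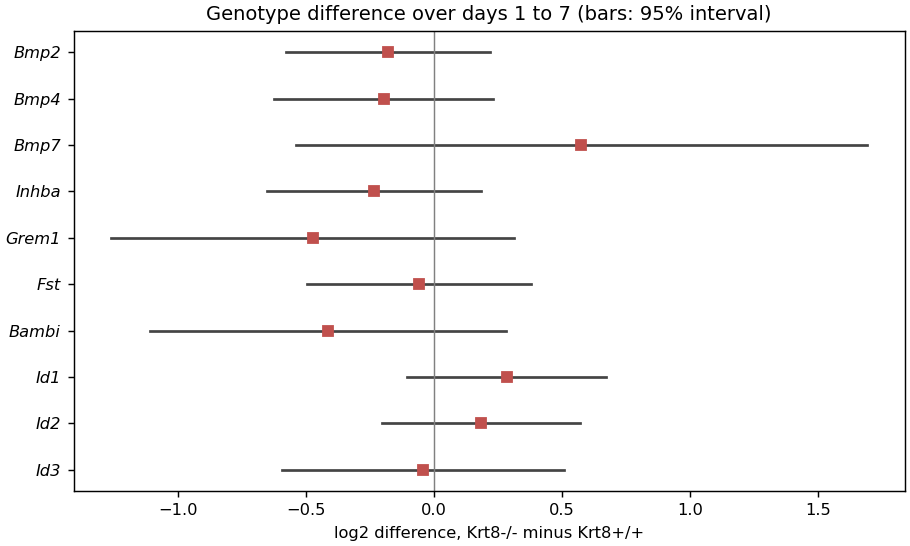
Log2 difference between genotypes (Krt8-/- minus Krt8+/+, horizontal axis) over days 1 to 7 for the 10 genes, with squares at the edgeR estimate and bars for the 95% interval. All 10 intervals cross 0, and those of Grem1 and Bmp7 are the widest.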

How the data were processed

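Bulk RNA-Seq was measured in 24 libraries of mouse AEC2s, and groups were read from the genotype, day and replicate labels. The authors deposited 1 table of whole-number read counts per gene, not normalized. The submitters' processing notes name cutadapt 2.3, STAR 2.7.8a, RSEM 1.3.3 and GRCm38. No source used here gives their order, the strand setting or whether the counts are rounded RSEM estimates. Totals ran from 10184439 to 19483386 counts per library. 5 entries of the table that name reporter genes were left out and were 0 throughout.

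Counts were fitted with edgeR 4.0.16 (R 4.3.3, limma 3.58.1) by the quasi-likelihood test over 8 groups with 16 residual degrees of freedom, after filterByExpr (minimum count 10, minimum total 15) and TMM scaling, and p-values were adjusted by Benjamini-Hochberg over all 18046 genes tested, with a call at 0.05 or less. The SE is the absolute log2 difference divided by the square root of F. The comparison over days 1 to 7 weighted the days 0.167, 0.5 and 0.333. Alternatives were DESeq2 1.42.0 as test and as size factors, library totals, no filter, the batch as a block, only the libraries compared, and each batch left out. The code was tested on simulated data. No libraries of a group agreed within sampling noise (lowest chi-square per gene 9.44).

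Batch dates were shared across groups, so batches pair the libraries. Deviations of same-batch libraries correlated across days from -0.0345 to 0.383 (median 0.17, 21 of 30 pairs over 0.1) and across genotypes from 0.0573 to 0.548 (10 of 12 pairs over 0.1). The labels call these biological replicates without saying whether animals were pooled, so p-values measure the spread between these libraries.

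Gene positions and exon lengths came from GENCODE M21 and promoters from RefSeq. Genes of other roles were named as the 2 per list with the largest log2 difference on day 7 in Krt8+/+ cells among called genes with at least 1 CPM in a group and 1 direction in all 3 batches, and 2 nearest genes were named per member. The members and lists were chosen with earlier results of these data known.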

Additional observations from a re-analysis of the deposited data

How the results depend on the processing

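Over 120 single results of the 10 genes, 972 of 1051 alternative values kept their direction and their side of the threshold, 42 lost the call, 22 gained it and 15 changed sign, none of these 15 in a called result. The cause of these changes was not tested. With the replicate block (the batch as a term), the calls changed for Grem1 (Krt8-/-, day 1 against day 0), Bambi (Krt8+/+, day 3 against day 1) and Id2 (Krt8-/-, day 3 against day 0 and day 7 against day 3), the value of Bambi from day 3 to day 7 in Krt8+/+ cells turned to -0.0044, the count of all genes called between genotypes over days 1 to 7 went from 5 to 9, and no other call of the 10 genes changed.

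Leaving out each batch in turn gave ranges that held 0 for Bmp7 on day 1 in Krt8+/+ cells (-0.95 to 0.095) and on day 3 in Krt8-/- cells (-0.98 to 0.17). From day 3 to day 7 the same was seen for Bambi (-0.54 to 0.50) and Id1 (-0.12 to 0.11) in Krt8+/+ cells and for Bambi (-0.61 to 0.93) and Id3 (-0.16 to 0.46) in Krt8-/- cells. Between genotypes over days 1 to 7 it was seen for Bmp2 (-0.34 to 0.064), Bmp4 (-0.34 to 0.053), Bmp7 (-0.26 to 1.10), Fst (-0.22 to 0.14) and Id3 (-0.13 to 0.043). Library totals in place of TMM turned Bambi (-0.083) and Id1 (-0.11) from day 3 to day 7 in Krt8+/+ cells and Bmp7 on day 3 in Krt8-/- cells (0.26).

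Of the 10 genes, without 1 batch, 1 to 2 in place of 3 were called from day 3 to day 7 in either genotype, 5 to 7 in place of 8 on day 1 in Krt8-/- cells, and 3 to 7 in place of 8 from day 1 to day 3 in Krt8-/- cells. From day 3 to day 7 in Krt8-/- cells, library totals gave 5 and a fit of only the libraries compared gave 5. Over all genes, without 1 batch, 2617 to 3085 in place of 4740 were called from day 1 to day 3 and 325 to 572 in place of 1188 from day 3 to day 7 in Krt8+/+ cells, and 1843 to 2692 in place of 4252 and 834 to 968 in place of 1903 in Krt8-/- cells. Only the libraries compared gave 2879 for the first of these.

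Between genotypes over all genes, DESeq2 called 9, 5 and 8 on days 0, 1 and 3, 17 over days 1 to 7 and 3 in the interaction, and no filter gave 10 and 6 on days 0 and 1, 11 over days 1 to 7 and 2 in the interaction, in place of 5, 3, 3, 5 and 1. Without 1 batch, the range was 2 to 5 genes at days 0, 1 and 7, 3 to 5 at day 3, and 0 in the interaction.

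By the longest transcript, levels per kilobase in Krt8+/+ cells were 78.51 for Bmp4, 83.51 for Id2 and 0.3866 for Fst on day 0 and 23.9 for Fst and 78.19 for Id3 on day 7, and the Fst to Inhba ratio was 0.1139, 0.0923 and 0.2107 on days 1, 3 and 7. The share of higher calls under library totals went from 54.9% to 69% from day 1 to day 3 and from 47.3% to 24.6% from day 3 to day 7 in Krt8+/+ cells. In Krt8-/- cells it went from 46.9%, 48.8% and 48.9% against day 0 to 71.8%, 73.8% and 65.7%, from 56.9% to 64.9% from day 1 to day 3 and from 41.7% to 23.9% from day 3 to day 7. Depth limits Bmp7 in every group, and Grem1, Inhba and Fst on day 0.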
